A study of Mus musculus with 12 samples.

Results

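Hypoxia was compared with normoxia in mouse GC-2 cells under MLN4924. The comparison takes 6 of the 12 libraries of the series. In 3 of them the cells had been exposed to 1 µM MLN4924 at 1% oxygen for 24 h, and in the other 3 to the same dose for the same time under normoxia. The members were chosen by these labels alone, and 11626 of the 24770 genes in the table reached 1 FPKM (fragments per transcript length, scaled to the library's total) in at least 3 of the 6 libraries and were tested. The remaining 6 libraries carry DMSO, the solvent, in place of MLN4924, at 1% oxygen or under normoxia for 24 h, and serve for side by side values and for the test of whether the hypoxia effect differed between the treatments. All groups are wild type by their labels, and all 6 cultures of the main comparison carry MLN4924, so nothing in it shows what MLN4924 itself did. Each group's 3 libraries are described by the submitters as biological replicates. The titles and the cell line label name GC-2 for every library, while the number in the cell type label differs from library to library. GC-2 is a single immortalised line, made with SV40 large T antigen and a temperature-sensitive p53, which limits it as a model of germ cells and of p53 control.

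MLN4924 (pevonedistat) blocks the NEDD8-activating enzyme, a dimer of Nae1 and Uba3, and so stops the attachment of NEDD8 to cullins. Cullin-RING ligases need that attachment, and they tag many short-lived proteins for the proteasome, among them HIF-1α (through VHL and cullin 2), the licensing factor Cdt1, the CDK inhibitor p21 and the NRF2 protein. In normal oxygen the prolyl hydroxylases Egln1 to Egln3 mark HIF-1α for VHL, and in low oxygen the mark is not made, HIF-1α builds up with its partner Arnt and binds short DNA elements with the core ACGTG or GCGTG. Low oxygen also slows translation through eIF2α, which favours the transcription factor ATF4 (the integrated stress response).

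The libraries of the main comparison resembled each other. Their total FPKM lay between 543654 and 557779, and each library's Spearman correlation with its own group was 0.978 to 0.980, above the 0.952 to 0.958 between the groups. Among the DMSO libraries, hypoxia replicate 1 stood apart, with a total of 633597 FPKM and a correlation of 0.926 with its group, so the counts that rest on it are also given without it. The table holds no read counts, so the sequencing depth behind each value is unknown and no counting interval can be given. The labels call the cells type B spermatogonia, but of 13 spermatogonial markers in the table only 4 reached the filter (Ccnd2, Etv5, Uchl1 and Gfra1), and Ddx4, Kit and Sohlh1 averaged at most 0.02 FPKM in both groups. None of the 7 spermatocyte and spermatid markers in the table passed the filter. Fibroblast and peritubular markers were high, with a summed level of 2745 to 2791 FPKM in the normoxic and 2986 to 3159 FPKM in the hypoxic libraries. Of the 11 tested, 5 rose (45.5%, Vim, Col3a1, Col1a2, Col1a1 and Acta2) and none fell at the threshold, beside 18% and 25% of all tested genes. Log2 changes in this list ran from -1.27 to 0.39, and the largest decrease was not called. Myh11 was at most at a mean of 0.01 FPKM, and the part of these markers in the other results was not tested. In bulk RNA, fewer cells of a kind and less RNA per cell cannot be told apart.

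Promoter windows of 7 genes are shown because they carry the elements of the 3 gene groups described most closely here. They are RefSeq windows on GRCm38.p6, from 250 bases before to 50 bases after a gene's start, written 5′ to 3′ on the gene's strand. Capitals in the first group mark the hypoxia response element core, ACGTG or GCGTG on either strand, in 3 genes that rose under hypoxia. The windows are Car9 at chr4:43506776-43507075 (plus strand), Bnip3 at chr7:138909457-138909756 (minus strand) and Ero1a at chr14:45318523-45318822 (minus strand).
Car9: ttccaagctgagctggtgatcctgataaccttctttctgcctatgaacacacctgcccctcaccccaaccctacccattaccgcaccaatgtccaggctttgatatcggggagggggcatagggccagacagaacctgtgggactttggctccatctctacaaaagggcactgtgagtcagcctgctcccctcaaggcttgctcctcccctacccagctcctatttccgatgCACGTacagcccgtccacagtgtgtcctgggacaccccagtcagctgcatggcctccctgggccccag
Bnip3: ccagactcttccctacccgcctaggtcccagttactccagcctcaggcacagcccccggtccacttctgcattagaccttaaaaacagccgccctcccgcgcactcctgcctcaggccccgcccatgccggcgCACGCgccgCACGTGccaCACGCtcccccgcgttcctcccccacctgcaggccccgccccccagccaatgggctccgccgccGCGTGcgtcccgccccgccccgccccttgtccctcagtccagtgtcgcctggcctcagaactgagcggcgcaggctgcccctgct
Ero1a: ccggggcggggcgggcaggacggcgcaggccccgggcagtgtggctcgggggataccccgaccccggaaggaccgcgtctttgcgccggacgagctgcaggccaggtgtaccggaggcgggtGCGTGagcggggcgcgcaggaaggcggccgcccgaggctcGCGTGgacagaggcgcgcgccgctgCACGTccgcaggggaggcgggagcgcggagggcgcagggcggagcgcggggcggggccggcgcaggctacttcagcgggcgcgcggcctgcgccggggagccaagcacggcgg

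Capitals in the second group mark TTTGAA, the cell cycle homology region core, on either strand, in a pair of mitotic genes that fell. The windows are Cdc20 at chr4:118437294-118437593 (minus strand) and Plk1 at chr7:122159185-122159484 (plus strand).
Cdc20: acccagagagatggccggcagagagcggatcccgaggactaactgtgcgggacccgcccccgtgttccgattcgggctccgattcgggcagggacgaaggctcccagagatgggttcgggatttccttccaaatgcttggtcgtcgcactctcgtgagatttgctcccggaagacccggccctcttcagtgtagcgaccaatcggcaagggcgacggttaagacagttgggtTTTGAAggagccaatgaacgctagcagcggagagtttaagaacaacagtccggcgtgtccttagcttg
Plk1: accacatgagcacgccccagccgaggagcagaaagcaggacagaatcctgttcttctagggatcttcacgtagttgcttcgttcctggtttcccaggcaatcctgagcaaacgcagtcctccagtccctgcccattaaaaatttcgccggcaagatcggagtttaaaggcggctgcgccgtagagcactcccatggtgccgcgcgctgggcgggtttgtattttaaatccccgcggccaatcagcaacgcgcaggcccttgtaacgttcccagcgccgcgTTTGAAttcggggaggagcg

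Capitals in the third group mark GAAANNGAA, the core of the interferon-stimulated response element, on either strand, in a pair of interferon-stimulated genes that fell. The windows are Ifit1 at chr19:34640639-34640938 (plus strand) and Ifit3 at chr19:34583279-34583578 (plus strand).
Ifit1: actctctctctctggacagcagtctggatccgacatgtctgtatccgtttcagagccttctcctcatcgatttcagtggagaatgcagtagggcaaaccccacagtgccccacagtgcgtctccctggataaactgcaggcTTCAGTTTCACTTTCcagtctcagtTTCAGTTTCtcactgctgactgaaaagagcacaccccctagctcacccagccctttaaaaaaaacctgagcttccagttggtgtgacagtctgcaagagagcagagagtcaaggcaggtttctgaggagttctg
Ifit3: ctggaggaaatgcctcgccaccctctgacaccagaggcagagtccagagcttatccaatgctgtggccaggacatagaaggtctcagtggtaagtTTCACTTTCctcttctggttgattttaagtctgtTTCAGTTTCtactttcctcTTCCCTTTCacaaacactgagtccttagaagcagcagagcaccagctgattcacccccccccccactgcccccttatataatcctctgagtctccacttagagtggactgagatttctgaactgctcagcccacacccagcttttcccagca

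The hypoxia element core is short and common. It was found in a window of 69.7% of the 8825 tested genes with a RefSeq promoter and of 46.7% of all 27025 genes in the promoter table. Among HIF targets outside glycolysis that rose, 26 of 28 with a promoter held it (92.9%), as did 18 of 20 glycolysis genes that rose (90%). Of the falling groups, 13 of 17 mitotic genes (76.5%) and 9 of 24 interferon-stimulated genes (37.5%) held it. The share was 71.9% of all tested genes that rose, 70.3% of those that fell and 68.7% of those not called. Counted per window, it was 84.2% for these HIF targets and 78.8% for glycolysis, against 63.6% over all tested genes. TTTGAA stood in a window of 13 of 17 mitotic genes that fell (76.5%), against 14.3% of tested genes and 20.2% of all genes. GAAANNGAA stood in 17 of 24 interferon-stimulated genes that fell (70.8%), against 8.51% of tested genes and 9.76% of all genes. The motifs overlap in places, as in Bnip3 and Ifit1, where neighbouring matches run together. In each list only the members called in the direction named were counted, so these shares are not set against the list's other members. TTTGAA and GAAANNGAA were added after the values of these genes had been seen, and a match describes letters in a window and not a bound site.

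Under MLN4924, hypoxia changed a large part of the measured transcriptome. By limma with Benjamini-Hochberg adjustment, 2096 of the 11626 genes rose (18%) and 2902 fell (25%) at an adjusted p under 0.05. Changes of at least 2-fold on the log2(FPKM + 1) scale were fewer, with 212 genes up and 121 down. The median change over all tested genes was -0.05, and the median standard error was 0.09. With the calls this frequent, a list whose share of called genes is near 18% up and 25% down does not stand apart from the other genes. The rule that named the largest changes, among all genes and in each list, required groups that do not overlap. For genes named by it, the lack of overlap is a description and not a result. Fold changes of genes below a few FPKM are understated, because 1 was added to every value before the logarithm. RNA of near-identical gene copies was divided between them by estimation, so values of Ifit3b beside Ifit3, of Hspa1b beside Hspa1a and of the overlapping mt-Atp8 and mt-Atp6 are uncertain.

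Genes that HIF is known to drive gave large increases with little spread. Of 43 tested HIF targets outside glycolysis, 36 rose and 2 fell, with a median of 1.32. Ndrg1, a stress-responsive gene of the NDRG family, measured 21.4, 24.9 and 23.2 FPKM in the normoxic and 287, 324 and 307 FPKM in the hypoxic libraries. Ero1a, the oxidase that drives disulfide bond formation in the endoplasmic reticulum, measured 17.4, 16.8 and 16.9 FPKM under normoxia and 163, 196 and 175 FPKM under hypoxia. Car9, a membrane carbonic anhydrase that exports acid, measured 19.2, 20.4 and 19.3 FPKM and then 167, 175 and 173 FPKM. In all 3 genes the lowest hypoxic library lay far above the highest normoxic one. Their log2 changes were 3.67 ± 0.07 (SE, adjusted p = 1.1e-06), 3.31 ± 0.07 (adjusted p = 1.5e-06) and 3.06 ± 0.04 (adjusted p = 4.9e-07).

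Other HIF targets with established roles followed. The mitophagy receptor Bnip3 measured 80.6, 83.1 and 79.0 FPKM under normoxia and 411, 462 and 412 FPKM under hypoxia (log2 change 2.39, adjusted p = 1.6e-06), and its relative Bnip3l rose by 1.62. Adm, the vasodilator peptide adrenomedullin, rose from 1.76 ± 0.22 to 18.8 ± 1.84 FPKM (SD, n = 3), and Vegfa, the main angiogenic growth factor, from 36.3 ± 3.67 to 100.2 ± 4.32 FPKM. The groups did not overlap in these genes. Ankrd37 rose by 2.58, the glycogen-targeting phosphatase subunit Ppp1r3c by 2.55, the circadian repressor Bhlhe40 by 2.40, the lipid droplet protein gene Hilpda by 2.01 and the mTORC1 inhibitor Ddit4 by 1.92. The 2 members that fell were Tfrc, the transferrin receptor (-0.37), and Angptl4 (-0.54), and 1 fell when MLN4924 normoxia replicate 1, 2 or 3 was left out.

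Glycolysis rose almost as a whole. Of 22 tested members, 20 rose and none fell, with a median of 0.90, and Eno2 (0.05) and Pfkfb4 (-0.62) were not called. Without MLN4924 normoxia replicate 3, 1 member fell. The glucose transporter Slc2a1 measured 59.0, 59.7 and 57.8 FPKM under normoxia and 199, 199 and 208 FPKM under hypoxia, a log2 change of 1.76 ± 0.03 (adjusted p = 1.1e-06). Gapdh, at the triose step, rose from 2438 ± 35.3 to 5131 ± 17.7 FPKM. The phosphofructokinase Pfkp rose by 1.38, Pdk1, a kinase that inhibits pyruvate dehydrogenase, by 1.33, hexokinase 2 (Hk2) by 1.27 and lactate dehydrogenase A (Ldha) by 0.91. Among genes of carbohydrate stores, glycogen synthase Gys1 rose by 1.83, the phosphoglucomutase Pgm1 by 1.41 and the branching enzyme Gbe1 by 1.09. Pgd (-0.78), G6pdx (-0.24) and Taldo1 (-0.19), enzymes of the pentose phosphate pathway, fell.

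**Figure D1:**
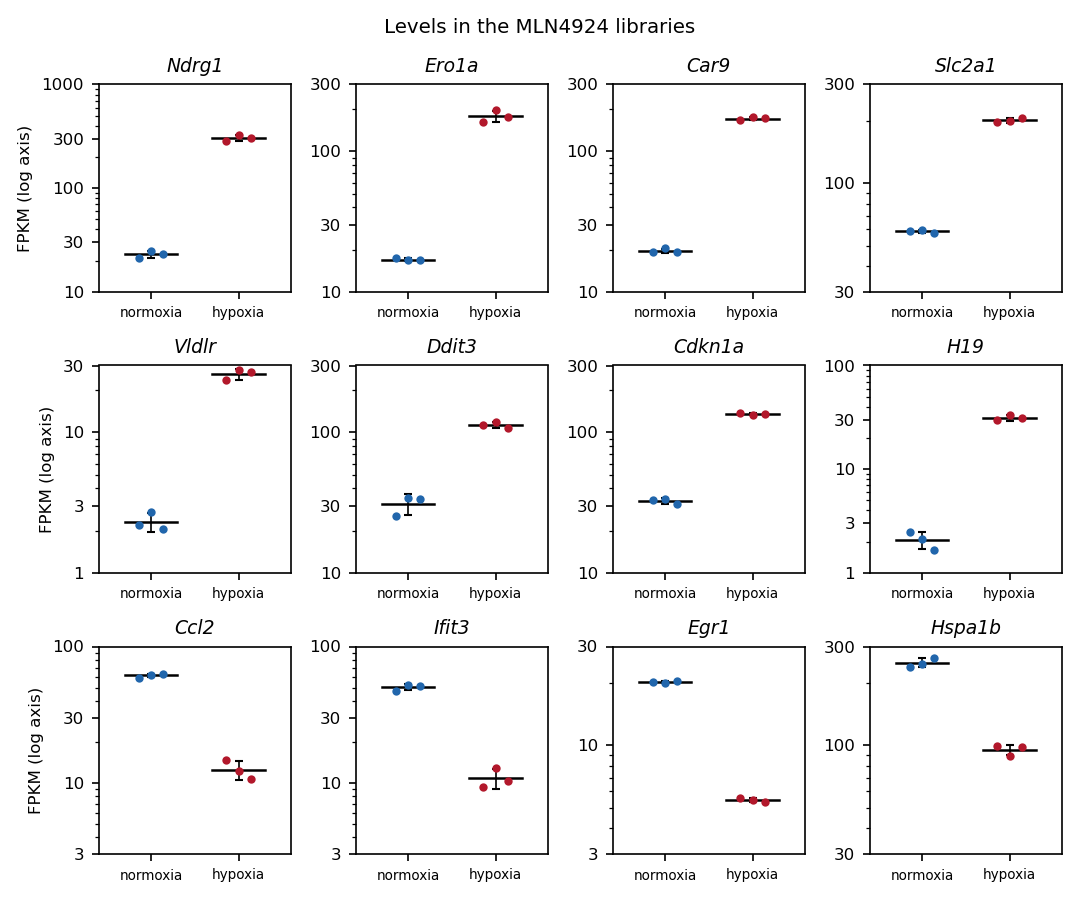
FPKM on a log axis of 12 genes in the 3 normoxic (blue) and 3 hypoxic (red) libraries under MLN4924; points are libraries, the long bar is the mean and the whiskers are the SD. In each of the 12 genes the 2 groups do not overlap, as the rule that named these genes required. Ndrg1 goes from between 21.4 and 24.9 to between 287 and 324 FPKM.

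The oxygen-sensing machinery itself split. The prolyl hydroxylases Egln1 and Egln3, which are themselves HIF targets, rose by 1.62 ± 0.04 and 1.61 ± 0.07, and Vhl, the substrate receptor for hydroxylated HIF-1α, rose from 14.8 ± 0.38 to 22.98 ± 0.45 FPKM (0.60, adjusted p = 0.00018). Hif1a mRNA went the other way. It measured 37.7, 36.6 and 36.7 FPKM under normoxia and 30.2, 28.1 and 29.5 FPKM under hypoxia, and fell by 0.33 (adjusted p = 0.0013) with no overlap. Egln2 (-0.36), the asparaginyl hydroxylase Hif1an (-0.27) and Rbx1 (-0.25), the RING subunit of cullin ligases, also fell, while Arnt (0.05) and Cul2 (-0.0025) were not called. Epas1, which encodes HIF-2α, averaged 0.03 FPKM under normoxia and 0.02 FPKM under hypoxia and was not tested. Of the 11 tested members of this list 3 rose (27.3%) and 4 fell (36.4%), beside 18% and 25% of all tested genes. The rising count was 5 when MLN4924 hypoxia replicate 3 was left out.

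Genes of the pathway that MLN4924 blocks leaned downward. Of 45 tested genes of neddylation and cullin-RING ligases, 4 rose and 18 fell, with a median of -0.19. Nedd8 itself fell from 131 ± 7.73 to 102 ± 4.64 FPKM (-0.36, adjusted p = 0.0026). The NEDD8-conjugating enzyme gene Ube2f fell by 0.71, the scaffold Cul4b by 0.85, Cul3 by 0.36 and Cops5, the catalytic subunit of the COP9 signalosome that removes NEDD8, by 0.40. Of the enzyme that MLN4924 inhibits, Nae1 measured 18.97 ± 0.88 FPKM under normoxia and 18.4 ± 1.63 FPKM under hypoxia and was not called (adjusted p = 0.64). Its partner Uba3 rose by 0.27 (adjusted p = 0.021), a call lost without MLN4924 normoxia replicate 1 or 2 (adjusted p between 0.014 and 0.066 over the alternatives).

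The integrated stress response rose in nearly every measured member. Of 37 tested genes 31 rose and 2 fell, with a median of 0.54. Ddit3, which encodes the stress factor CHOP, measured 25.3, 34.3 and 33.8 FPKM under normoxia and 113, 119 and 107 FPKM under hypoxia, a log2 change of 1.84 ± 0.12 (adjusted p = 8.4e-05). Vldlr, a lipoprotein receptor, measured 2.21, 2.72 and 2.04 FPKM and then 23.5, 27.7 and 26.8 FPKM, a change of 3.02 ± 0.10. Both genes were higher in every hypoxic library. Atf4 mRNA rose less, from 286 ± 14.5 to 361 ± 4.66 FPKM (0.33, adjusted p = 0.001). Trib3, a pseudokinase induced by CHOP, rose by 1.13, the stress hormone gene Gdf15 by 1.81, Fgf21 by 1.74, the proline synthesis gene Pycr1 by 1.56, Cth of cysteine synthesis by 1.52 and asparagine synthetase (Asns) by 0.89. Slc38a2, an amino acid transporter, fell by 0.80. Slc7a11, the cystine importer, fell by 0.20, and its call was lost when any of MLN4924 hypoxia replicate 2 or 3 or a single normoxic library was left out (adjusted p from 0.023 to 0.23 over all alternatives).

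The unfolded protein response of the endoplasmic reticulum did not move as a block. Of 24 tested members, 5 rose (20.8%) and 8 fell (33.3%), beside 18% and 25% of all tested genes. Their median was -0.08, and the falling count was 5 without MLN4924 hypoxia replicate 3 or normoxia replicate 3. Dnajb9, a co-chaperone, rose by 0.76 and P4hb, a disulfide isomerase that is also a prolyl hydroxylase subunit, from 558 ± 3.67 to 888 ± 16.7 FPKM (0.67). Hspa5, the chaperone BiP, measured 289 ± 2.47 and 266 ± 14.5 FPKM and was not called (adjusted p = 0.054), nor was Xbp1 (0.14, adjusted p = 0.068). Of 33 autophagy and lysosome genes 15 rose (45.5%) and 4 fell (12.1%), with a median of 0.11. The kinase gene Ulk1, which starts autophagy, rose by 0.84, Wipi1 by 0.58 and the mitophagy kinase gene Pink1 by 0.57. Without MLN4924 normoxia replicate 1 or 3 the falling count was 1 or 2.

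Several groups of growth and protein quality control genes fell. Of 22 tested cytosolic heat shock genes none rose and 18 fell, with a median of -0.41. Hspa1b, an inducible HSP70, measured 240, 248 and 264 FPKM under normoxia and 98.9, 88.8 and 97.9 FPKM under hypoxia (-1.39 ± 0.05, adjusted p = 1.3e-05). Hspa8, the constitutive HSP70, fell from 1732 ± 8.41 to 1023 ± 20.1 FPKM and the HSP110 gene Hsph1 by 1.14. Of 31 proteasome subunit genes 27 fell, with a median of -0.48, and 1 rose, the lid subunit Psmd8 (0.33). Psmd1, a scaffold of the regulatory particle, measured 112, 114 and 110 FPKM and then 55.7, 57.3 and 59.0 FPKM (-0.95 ± 0.03). The hypoxic values of Psmd1 and Hspa1b lay below all normoxic ones.

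Genes that make ribosomes and genes that are part of them moved apart. Of 31 tested genes of the nucleolus and rRNA synthesis, 24 fell and 1 rose (Polr1c, 0.45), with a median of -0.63. Polr1e, a subunit of RNA polymerase I, fell by 1.40, the snoRNP protein gene Rrp9 by 1.26, Nop16 by 1.01, nucleolin (Ncl) by 0.63 and Myc by 0.43. Of 45 cytosolic ribosomal protein genes 32 rose, by 0.09 to 0.57, with a median of 0.20. Rpl10a rose most, from 322 ± 7.15 to 479 ± 5.90 FPKM. Rps13 fell by 0.79, and without MLN4924 hypoxia replicate 1 there were 2 that fell. These small increases depend on the tight spread of the 6 libraries: a fit over all 12 libraries with a shared spread called 4 as rising.

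Mitochondrial genes were lower in part. Of 13 mitochondrially encoded genes 8 fell and none rose, with a median of -0.44. mt-Nd1, a subunit of complex I, measured 4360, 4566 and 4728 FPKM under normoxia and 2443, 2357 and 2423 FPKM under hypoxia, with no overlap (-0.92 ± 0.04). mt-Co2 (1.25) and mt-Co3 (0.68) were higher on average but not called, and a single gene rose when MLN4924 hypoxia replicate 3 was left out. The mitochondrially encoded share of all FPKM was 10.4% to 11.4% in the normoxic and 7.25% to 7.64% in the hypoxic libraries. Since FPKM is relative to a library's total, values were also rescaled to equal totals without these genes, which gave 1869 rising and 3204 falling genes. Of 27 genes of the mitochondrial ribosome and of mitochondrial biogenesis 12 fell and 1 rose, the protease gene Lonp1 (from 75.1 ± 2.05 to 191 ± 6.63 FPKM), and 2 rose without MLN4924 hypoxia replicate 3. Of 44 nuclear respiratory chain genes 8 rose (18.2%) and 15 fell (34.1%), beside 18% and 25% of all tested genes. Ndufa4, a subunit of complex IV, fell by 0.69. In the fit over all 12 libraries 1 of these genes rose and 7 fell.

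**Figure D2:**
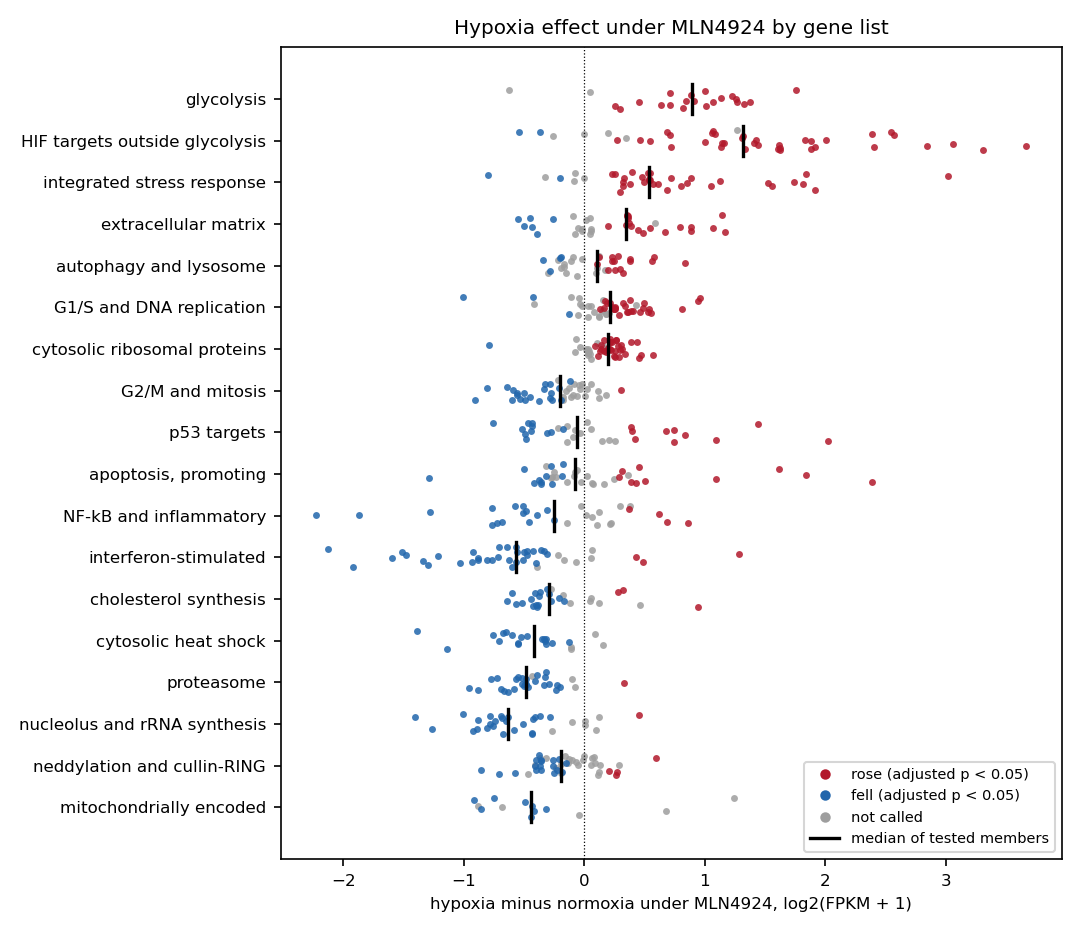
Log2 change with hypoxia under MLN4924 for each tested member of 18 gene lists, on the log2(FPKM + 1) scale; red and blue points passed an adjusted p of 0.05, grey points did not, and the bar is the list's median. The bar lies at 1.32 for HIF targets and at -0.63 for the nucleolus, beside -0.05 for all tested genes.

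Interferon-stimulated genes were lower under hypoxia. Of 41 tested genes 32 fell and 3 rose, with a median of -0.57. Ifit3, a gene of the antiviral IFIT family, measured 47.5, 51.9 and 51.3 FPKM under normoxia and 9.37, 12.9 and 10.3 FPKM under hypoxia. Ifit1, of the same family, measured 53.8, 56.1 and 52.3 FPKM and then 17.7, 17.7 and 16.3 FPKM. Neither gene's groups overlapped, and the changes were -2.12 ± 0.11 (adjusted p = 4.0e-05) and -1.59 ± 0.05 (adjusted p = 5.7e-06). Cmpk2 fell by 1.51, Rsad2 (viperin) by 1.03, the RNA sensor gene Ifih1 by 0.92 and Isg15, a ubiquitin-like modifier, from 493 ± 6.15 to 368 ± 20.02 FPKM. The 3 that rose were Isg20, an exonuclease gene (1.28), Ifi44 (0.49) and Ifi27 (0.43). The transcription factor gene Irf7 was not called (0.07, adjusted p = 0.28). The summed level of macrophage and leukocyte markers was 10.7 to 13.2 FPKM under normoxia and 12.7 to 14.5 FPKM under hypoxia, with Csf1r, Itgam, Cx3cr1, Fcgr1 and Lyz2 all at a mean of at most 0.28 FPKM. Only 2 markers of this list were tested, of which Cd68 rose (0.73) and none fell. With a filter of at least 5 FPKM in 3 libraries the rising count was 0.

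Inflammatory genes moved in both directions, and the chemokine genes Ccl2, Ccl7 and Cxcl10 were the members that fell most. Of 29 tested genes of the NF-κB and inflammatory list 4 rose (13.8%) and 15 fell (51.7%), beside 18% and 25% of all tested genes. The median of the list was -0.25. Ccl2, which attracts monocytes, measured 59.0, 62.0 and 62.9 FPKM under normoxia and 14.6, 12.1 and 10.6 FPKM under hypoxia (-2.22 ± 0.10, adjusted p = 2.9e-05). Ccl7, a related chemokine, fell by 1.87 and the interferon-responsive Cxcl10 by 1.28, from 149 ± 6.38 to 60.6 ± 2.87 FPKM. All hypoxic values of these genes lay below the normoxic ones. Lif (0.86), Ptgs2 (0.68), Cxcl12 (0.62) and Tnfaip2 (0.37) rose. Of 17 genes of MHC class I and the immunoproteasome 6 rose (35.3%) and 8 fell (47.1%), beside 18% and 25% of all tested genes. H2-K1 (0.44) and B2m (0.29) were among those that rose. The immunoproteasome subunits Psmb10 (-0.98) and Psmb8 (-0.48) were among those that fell. The fit over all 12 libraries called 1 of the 17 genes as rising and 2 as falling.

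The cell cycle genes divided by phase. Of 40 tested genes of G2/M and mitosis 21 fell and 1 rose, with a median of -0.20. Cdc20, the activator of the anaphase-promoting complex, measured 127, 129 and 128 FPKM under normoxia and 74.2, 66.6 and 63.0 FPKM under hypoxia. Plk1, the polo-like kinase that drives mitotic entry, measured 108, 102 and 99.04 FPKM and then 62.7, 56.8 and 56.2 FPKM. Cyclin B1 (Ccnb1) measured 103, 103 and 103 FPKM and then 68.1, 67.5 and 61.4 FPKM. In each the hypoxic libraries lay below the normoxic ones, and the changes were -0.91 ± 0.06, -0.81 ± 0.06 and -0.64 ± 0.05 (adjusted p = 9.7e-05, 0.00011 and 0.00013). The mitotic kinase Aurka fell by 0.56, the ubiquitin-conjugating Ube2c by 0.59 and separase (Espl1) by 0.60. Cdk1 (-0.22, adjusted p = 0.10), Mki67 (0.12) and Top2a (0.11) were not called. Tpx2, a spindle assembly factor, rose (0.31), but the rising count was 0 without MLN4924 hypoxia replicate 1, 2 or 3 or normoxia replicate 1 or 3. The falling count was 16 to 23 over the left-out libraries and 12 in the fit over all 12 libraries.

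Genes of G1/S and DNA replication went up instead. Of 50 tested members 28 rose and 3 fell, with a median of 0.21. The kinase gene Cdk2 rose from 19.96 ± 0.56 to 39.9 ± 1.93 FPKM (0.97), Rb1 by 0.95, E2f1 by 0.81 and the helicase subunit Mcm6 by 0.40. Cdt1, whose protein is a cullin-RING substrate, rose from 38.2 ± 0.57 to 53.2 ± 1.86 FPKM (0.47, adjusted p = 0.00027), and its inhibitor geminin (Gmnn) by 0.50. Ccne2 rose by 0.49 and Ccne1 by 0.17, the latter near the threshold (adjusted p = 0.047, and 0.017 to 0.18 over the alternatives, with the call lost without MLN4924 hypoxia replicate 1 or 3 or any single normoxic library). Cyclin D1 (Ccnd1), the growth factor-responsive cyclin, fell from 62.7 ± 0.64 to 30.8 ± 2.84 FPKM. Of 33 DNA damage and repair genes 14 rose (42.4%), among them the scaffold gene Xrcc1 (0.60), and 3 fell (9.1%). That rising count dropped to 5 and 8 without MLN4924 hypoxia replicate 2 and 3 and to 8 and 6 without normoxia replicate 1 and 2.

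The CDK inhibitor p21 (Cdkn1a) rose most in its class. It measured 33.1, 33.7 and 30.9 FPKM under normoxia and 138, 134 and 135 FPKM under hypoxia, with a change of 2.02 ± 0.04 (adjusted p = 1.5e-06). Cdkn1b (p27) rose by 0.63 and Cdkn2d by 0.27. Of the 8 tested members 3 rose (37.5%) and 2 fell (25%), beside 18% and 25% of all tested genes. Those that fell were Cdkn2c (-0.15) and Cdkn3 (-0.71), a phosphatase gene. The call of Cdkn3 was lost without MLN4924 hypoxia replicate 3 or normoxia replicate 1 or 2 (adjusted p up to 0.051), and the falling count was 1 without hypoxia replicate 1 or 2 or normoxia replicate 3 and 0 without the others. Core histone genes of the replication-dependent clusters, a family picked after the values were seen, fell in 9 of 20 tested members and rose in none (median -0.62). The linker histone gene H1f2 fell from 23.6 ± 1.47 to 7.01 ± 0.65 FPKM.

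**Figure D3:**
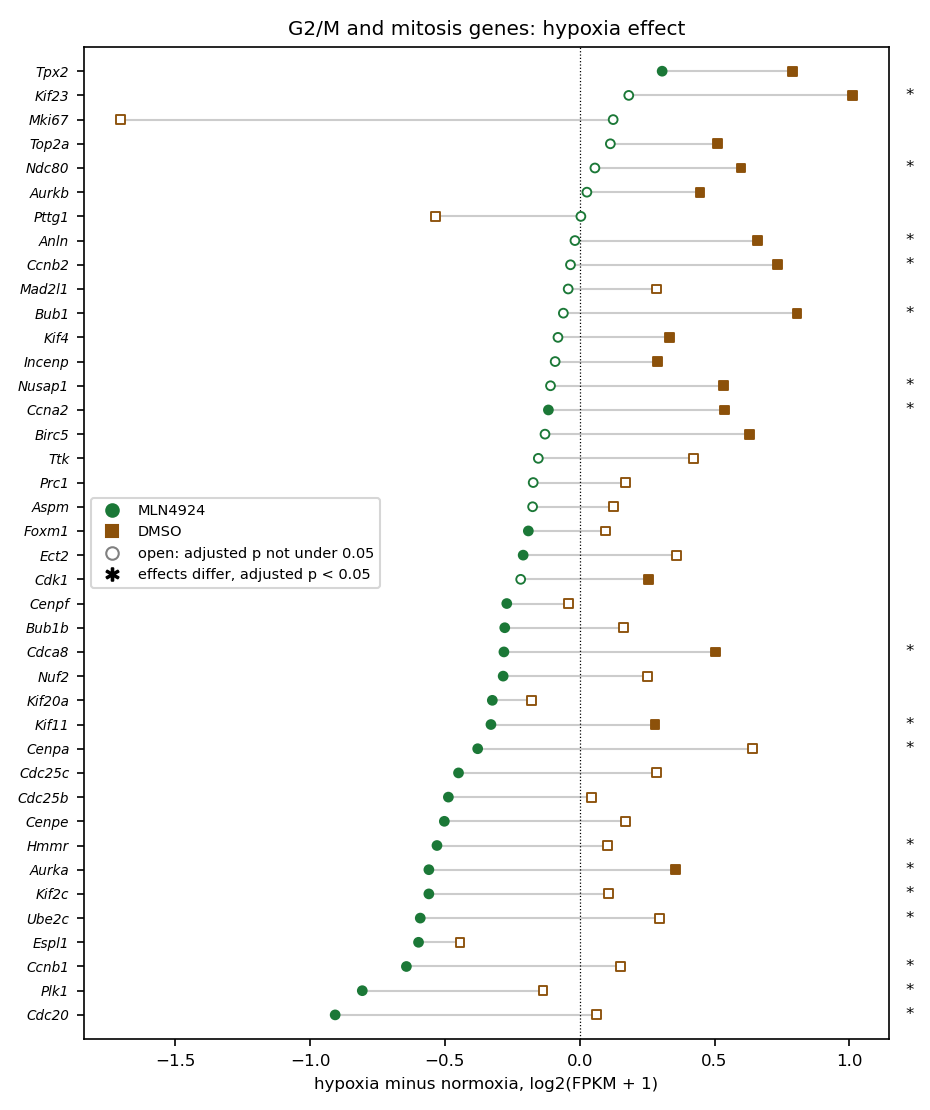
Log2 change with hypoxia of the 40 genes of G2/M and mitosis under MLN4924 (green circles) and with DMSO (brown squares), on the log2(FPKM + 1) scale; filled symbols passed an adjusted p of 0.05 and stars mark genes whose 2 effects differed. Under MLN4924, 21 genes lie filled to the left of 0, and with DMSO 17 lie filled to the right (28 without DMSO hypoxia replicate 1, which is not drawn).

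Targets of p53 moved in both directions. Of 32 tested genes 10 rose (31.25%) and 11 fell (34.4%), beside 18% and 25% of all tested genes. Their median was -0.06, and with a filter of at least 5 FPKM in 3 libraries 4 rose and 12 fell. Beside Cdkn1a, Gadd45a, a growth arrest gene, rose by 1.45 and Bbc3, which encodes the cell death protein PUMA, from 1.97 ± 0.37 to 5.36 ± 0.84 FPKM (1.10). Mdm2, the ligase that removes p53, measured 19.5 ± 1.92 and 17.5 ± 1.92 FPKM and was not called (adjusted p = 0.29). Trp53 was read at 2146, 2175 and 2129 FPKM under normoxia and 1615, 1437 and 1550 FPKM under hypoxia, and fell by 0.49 (adjusted p = 0.00033). These values do not tell RNA of the cells' own Trp53 from that of the temperature-sensitive p53 used to make the line.

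Genes that promote apoptosis were mixed too. Of 37 tested genes 10 rose (27.0%) and 11 fell (29.7%), beside 18% and 25% of all tested genes. The falling count was 7 when MLN4924 hypoxia replicate 3 or any single normoxic library was left out. Bnip3, Ddit3, Bnip3l and Bbc3 led the rising members, and Pmaip1 (NOXA) rose by 0.39 (adjusted p = 0.020), a call lost without MLN4924 hypoxia replicate 3 or normoxia replicate 2 or 3. Bid, which links death receptors to mitochondria, measured 7.79, 8.04 and 8.80 FPKM and then 3.75, 3.17 and 1.69 FPKM (-1.29 ± 0.21, adjusted p = 0.0033). Its hypoxic libraries all lay below the normoxic ones. Bcl2l11 (0.25) was not called. Of 19 genes that oppose apoptosis 1 rose, Hax1 (0.83), and 7 fell, among them Mcl1, a short-lived BCL2 relative, from 62.3 ± 0.89 to 41.4 ± 0.52 FPKM (-0.58). The falling count was 4 and 3 without MLN4924 normoxia replicate 1 and 3, and 2 rose without normoxia replicate 1. Bcl2 was not called (-0.24, adjusted p = 0.17).

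In redox and iron genes, Hmox1, the heme oxygenase that is a target of both HIF and NRF2, rose from 125 ± 4.61 to 338 ± 22 FPKM (1.42). Of 32 tested NRF2 targets, Hmox1 included, 6 rose (18.8%) and 15 fell (46.9%), with a median of -0.15. Nqo1, the classical NRF2 target, measured 58.9 ± 1.19 and 54.3 ± 2.30 FPKM and was not called (adjusted p = 0.069), while Osgin1 fell by 0.89 and the glutathione transferase gene Gsta1 by 0.96. Nfe2l2, which encodes NRF2, rose by 0.23 (adjusted p = 0.020), a call lost without MLN4924 hypoxia replicate 1 or 3. Of 14 iron genes 2 rose (14.3%) and 6 fell (42.9%), beside 18% and 25% of all tested genes. The importer Slc11a2 (-0.67) and Aco1 (-0.62), whose protein binds iron-responsive elements, were among those that fell.

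Cholesterol synthesis genes leaned downward. Of 27 tested genes 17 fell and 3 rose, with a median of -0.29, and 11 fell in the fit over all 12 libraries. The dehydrogenase gene Hsd17b7 fell by 0.64 and the isomerase gene Idi1 by 0.52. Insig2 (0.94, adjusted p = 0.045), Stard4 and Insig1 rose, but 1 did without MLN4924 hypoxia replicate 2 or 3. Of 28 fatty acid genes 11 rose (39.3%) and 10 fell (35.7%), beside 18% and 25% of all tested genes. Hilpda (2.01) and Dgat2, an enzyme of triglyceride synthesis (from 4.22 ± 0.58 to 14.7 ± 0.28 FPKM), rose, and the elongase Elovl6 (-1.06), the carnitine transferase Cpt1a (-0.80) and fatty acid synthase (Fasn, -0.56) fell.

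Matrix genes rose in part. Of 35 tested genes 18 rose (51.4%) and 6 fell (17.1%), with a median of 0.34, and 11 rose in the fit over all 12 libraries. The collagen gene Col12a1 rose by 1.17, the collagen crosslinker Lox by 1.14 and fibronectin (Fn1) by 0.88. As given above, 5 of 11 tested fibroblast and peritubular markers rose too, 3 of them collagens of this same list. Of 37 targets of YAP and SRF 9 rose (24.3%) and 11 fell (29.7%), beside 18% and 25% of all tested genes. The falling count was 7 without MLN4924 normoxia replicate 1 or 3. The immediate early gene Egr1 measured 20.3, 19.99 and 20.4 FPKM under normoxia and 5.56, 5.47 and 5.35 FPKM under hypoxia (-1.72 ± 0.05), and Fosl1, a subunit of AP-1, fell from 37.04 ± 1.58 to 17.9 ± 2.93 FPKM. Egr1 was lower in every hypoxic library.

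Clock genes and chromatin genes changed singly. Of 18 clock genes 7 rose (38.9%) and 6 fell (33.3%), beside 18% and 25% of all tested genes. Bhlhe40 and Ciart (1.45) led those that rose. The output factor Tef (-1.35), the repressor Nr1d1 (-1.09) and Dbp (-0.99) led those that fell. Nr1d1 measured 13.8, 12.9 and 14.1 FPKM under normoxia and 6.42, 6.70 and 4.56 FPKM under hypoxia. Of 20 histone demethylase and TET genes 8 rose (40%) and 1 fell (5%), the rising ones being 5 without MLN4924 hypoxia replicate 1. Kdm6b rose by 1.16, Kdm3a by 1.14 and Kdm4b by 1.01, all members of the oxygen-dependent JmjC family.

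Some of the largest changes lay outside these lists. 2610528A11Rik, listed by RefSeq with the synonym Gpr15l (a ligand of the receptor GPR15), measured 4.73, 5.10 and 3.83 FPKM under normoxia and 100.4, 115 and 98.0 FPKM under hypoxia. The imprinted long noncoding RNA H19 measured 2.46, 2.10 and 1.68 FPKM and then 29.7, 33.5 and 31.0 FPKM. Their log2 changes of 4.25 ± 0.10 (adjusted p = 2.2e-06) and 3.40 ± 0.11 (adjusted p = 5.3e-06) had no overlap between groups. Angptl6, a secreted angiopoietin-like protein gene, rose by 2.85. The pseudogene Gm7332 was listed at 0 in all normoxic libraries and at a mean of 9.39 FPKM under hypoxia, so no fold is given. It passed the filter through the hypoxic libraries alone. With DMSO it varied within groups, at 0, 10.05 and 0 FPKM under normoxia and 0, 4.39 and 6.79 FPKM under hypoxia. There it was not called (limma, adjusted p = 0.73). Gm1943 and Gm4468 rose and Gm45665 and Gm9775 fell by the test, with wide spreads: Gm45665 measured 75.1, 200 and 134 FPKM and then 0, 28.9 and 0 FPKM. Its call was lost without MLN4924 hypoxia replicate 3 or normoxia replicate 2, and that of Gm1943 without hypoxia replicate 1 or 2 or normoxia replicate 2 or 3. Among falling genes with a known product were Fubp1 (-1.68), which binds a regulatory element upstream of Myc, Usp16 (-1.57), a histone H2A deubiquitinase, and Dido1 (-1.84), whose call was lost without normoxia replicate 2 or 3.

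The same comparison with DMSO was set beside these results. With DMSO, 969 of 11805 tested genes rose (8.21%) and 1319 fell (11.2%), and 1470 and 2557 did when DMSO hypoxia replicate 1 was left out. Both counts were lower without DMSO hypoxia replicate 3 (463 and 663) or without normoxia replicate 1 (332 and 297), 2 (310 and 296) or 3 (335 and 311). Scaling by median of ratios gave 1182 and 1003, and so moved the rising share of the DMSO calls from 42.4% to 54.1%. The comparisons share no library. Of 11341 genes tested in both, 724 rose in both, which is 35.0% of those that rose under MLN4924 and 78.5% of those that rose with DMSO. In the other direction 1010 fell in both (35.2% and 78.7%), 9 rose under MLN4924 and fell with DMSO, and 16 did the opposite. Across these genes, which are not independent, the log2 changes had a Pearson correlation of 0.63 (0.68 without DMSO hypoxia replicate 1). Without DMSO hypoxia replicate 1, 1078 rose in both, which is 53.1% of those that rose under MLN4924 and 73.7% of those with DMSO. In that setting 1790 fell in both (62.5% and 71.2%), 27 rose under MLN4924 and fell with DMSO, and 35 did the opposite.

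**Figure D4:**
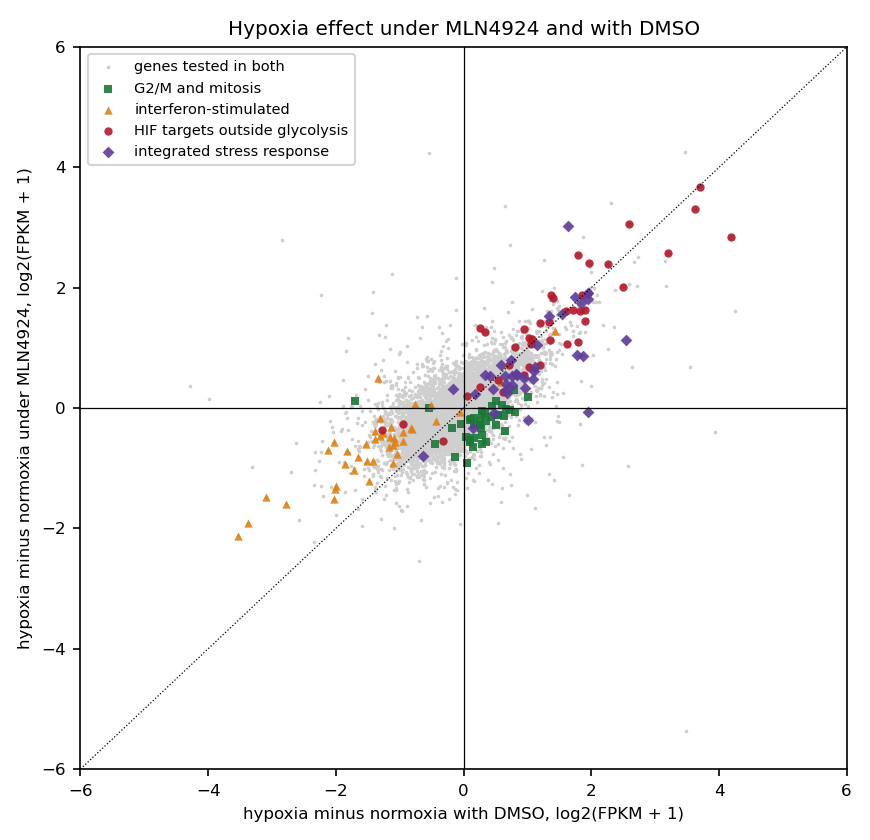
Log2 change with hypoxia under MLN4924 (vertical) against that with DMSO (horizontal) for 11341 genes tested in both, on the log2(FPKM + 1) scale; coloured symbols are 4 gene lists, and the dotted line marks equal change. Most interferon-stimulated genes lie above the line on the falling side and most G2/M genes lie below it.

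The difference between the effects was tested directly over all 12 libraries. It passed the threshold in 118 of 12311 genes in the positive direction (0.958%, a higher hypoxia effect under MLN4924) and in 114 in the negative direction (0.926%). Leaving out DMSO hypoxia replicate 1 gave 408 and 270, and leaving out an MLN4924 library or a DMSO normoxia library gave between 42 and 58 positive and between 48 and 73 negative ones. No tested glycolysis gene was among them (3 positive without that library), and of 43 HIF targets 3 differed in each direction (9 positive and 6 negative without it). Adm, for one, rose by 2.84 under MLN4924 and by 4.19 with DMSO (difference -1.34, adjusted p = 0.0058), whereas H19 rose by 3.40 and 2.31 (difference 1.10, adjusted p = 0.0068). For Ndrg1 (-0.03 ± 0.12) and Ero1a (-0.31 ± 0.13) the difference was not called.

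Mitotic genes differed between the treatments. Of 40 G2/M genes, 17 had a lower effect under MLN4924 and none a higher one, and 29 did without DMSO hypoxia replicate 1 and 11 without MLN4924 normoxia replicate 3. With DMSO, 17 of them rose with hypoxia and none fell (median 0.28), and 28 rose and 1 fell without DMSO hypoxia replicate 1. Cdc20 measured 102, 102 and 97.2 FPKM in DMSO normoxia and 108, 102 and 103 FPKM in DMSO hypoxia, against its drop from a mean of 128 to 67.9 FPKM under MLN4924. The difference of its effects was -0.97 ± 0.08 (adjusted p = 0.0014), that of Ccnb1 -0.79 ± 0.07 (adjusted p = 0.0015) and that of Plk1 -0.67 ± 0.08 (adjusted p = 0.0040). Cdc20 and Ccnb1 were higher in MLN4924 normoxia than in DMSO normoxia and lower in MLN4924 hypoxia than in DMSO hypoxia in every library. Aurka, Kif11, Ccna2 and Cdca8, named here after their values were seen, rose with hypoxia in DMSO and fell under MLN4924. In Aurka the 2 effects were 0.36 and -0.56, and DMSO hypoxia replicate 1 was its highest value, at 63.4 FPKM against 54.6 and 54.2 FPKM. In G1/S genes 4 differences were positive, including that of Cdt1 (0.37, adjusted p = 0.045), but the count was 0 when any single MLN4924 library or DMSO normoxia replicate 1 or 2 was left out. It was 10 without DMSO hypoxia replicate 1, 2 without DMSO hypoxia replicate 3 and 1 without DMSO normoxia replicate 3.

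Interferon-stimulated genes fell less under MLN4924. Their median change was -0.57 against -1.31 with DMSO, where 37 of 41 fell and 1 rose (38 and 2 without DMSO hypoxia replicate 1). The difference was positive in 15 and negative in none, and positive in 27 without DMSO hypoxia replicate 1. Ifit1 measured 83.4, 76.9 and 90.0 FPKM in DMSO normoxia and 12.8, 10.7 and 10.4 FPKM in DMSO hypoxia, so that it started higher and ended lower than under MLN4924. Its effects differed by 1.19 ± 0.12 (adjusted p = 0.0018), those of Ifit3 by 1.41 (adjusted p = 0.0040) and those of the chemokine Cxcl10 by 1.06 (adjusted p = 0.0066). Ifi44 rose under MLN4924, from 19.4, 16.5 and 21.0 FPKM to 25.8, 27.7 and 27.4 FPKM, and fell with DMSO, from 21.9, 17.6 and 26.8 FPKM to 7.91, 7.08 and 9 FPKM. The difference of 1.84 ± 0.20 (adjusted p = 0.0020) was as large without DMSO hypoxia replicate 1 (1.84).

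The hypoxia effect on stress response genes was lower under MLN4924 in 10 of 37 members, with no positive difference. Of these 10, Slc7a11 fell under MLN4924 (-0.20) and rose with DMSO (1.01), and Atf5 was not called under MLN4924 (-0.09) and rose with DMSO (0.48). The negative count was 5 to 12 over the left-out libraries, with 5 without DMSO normoxia replicate 1 or MLN4924 normoxia replicate 3 and 6 without MLN4924 hypoxia replicate 2 or 3 or normoxia replicate 2. Without DMSO hypoxia replicate 1 and 2 there were 2 and 1 positive differences. Trib3 measured 27.8, 33.6 and 32.6 FPKM in MLN4924 normoxia, above the 13.2, 14.3 and 15.6 FPKM of DMSO normoxia, and 75.8, 69.5 and 63.7 FPKM in MLN4924 hypoxia, below the 94.5, 89.3 and 82.8 FPKM of DMSO hypoxia. Its effects differed by -1.42 ± 0.13 (adjusted p = 0.0015), those of Asns by -0.90 (adjusted p = 0.0023) and those of Chac1, a glutathione-degrading enzyme gene, by -1.01 (adjusted p = 0.0020). Cdkn1a shared this pattern, with 16.7, 18.3 and 15.9 FPKM in DMSO normoxia and 171, 155 and 157 FPKM in DMSO hypoxia (difference -1.15 ± 0.09, adjusted p = 0.00085). Nr1d1 changed direction, from a fall under MLN4924 to a rise with DMSO (20.4, 20.9 and 20.9 FPKM to 32.0, 32.0 and 41.5 FPKM, difference -1.82, adjusted p = 0.0018).

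**Figure D5:**
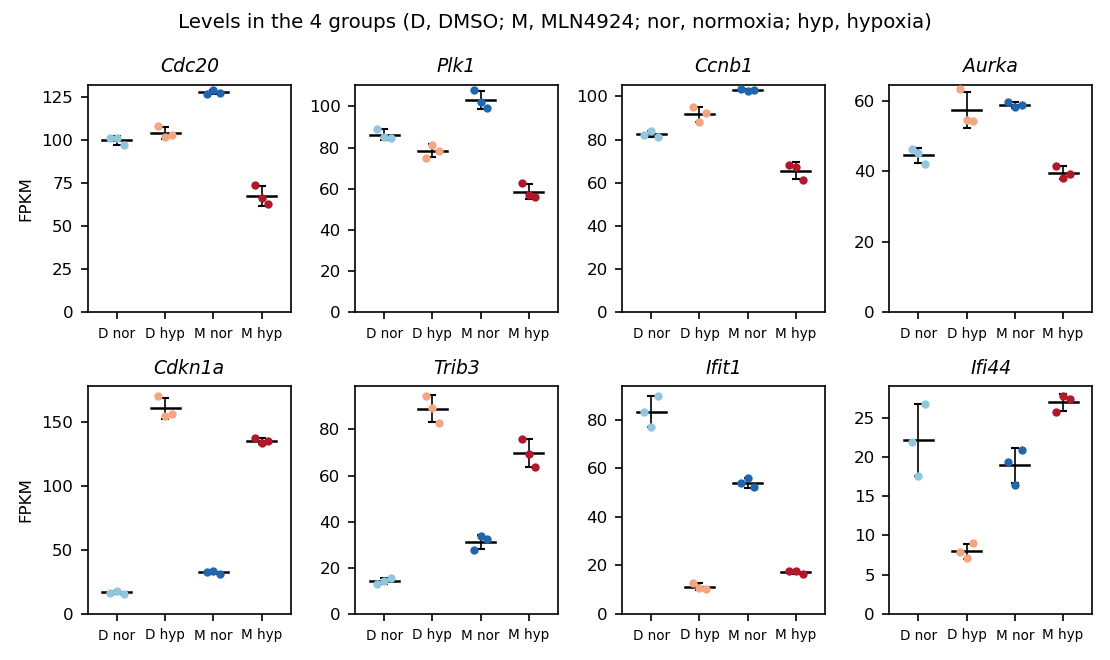
FPKM of 8 genes in the 4 groups, from 0 on a linear axis; points are libraries, the long bar is the mean and the whiskers are the SD (n = 3). Cdc20, Plk1, Ccnb1 and Aurka have their highest mean in MLN4924 normoxia and their lowest in MLN4924 hypoxia, and Ifi44 is lowest in DMSO hypoxia.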

How the data were processed

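RNA from GC-2 cells was extracted with RNAiso Plus and a column clean-up, and paired-end libraries with 150-base reads were made, per the labels' protocols. The deposited table holds FPKM values made by the authors. The submitters' processing notes name fastp, STAR, RSEM 1.3.3 and the mm39 build, and their settings, order and strandedness are not given in the sources used here. Sequencing depth is unknown, because FPKM keeps no read counts.

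Values were taken as log2(FPKM + 1). Genes with at least 1 FPKM in 3 of the 6 libraries compared were fitted with limma 3.58.1 (R 4.3.3) with a mean-variance trend, and p-values were adjusted by Benjamini-Hochberg over all tested genes, with a threshold of 0.05. All adjusted p-values are limma's and two-sided. The MLN4924 and DMSO comparisons were fitted on their own 6 libraries, and the difference between them on all 12. Before use, the fit was run on simulated data with independent noise for each value. Such data cannot show how shifts shared by many genes affect the calls. With 3 libraries against 3 an exact permutation test of 1 gene cannot go below 0.1. FPKM is relative to the library's total, so a change in a few abundant transcripts shifts all others.

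The labels do not say that a replicate number marks a shared batch, so the main fit had no block. Deviations from the group mean had correlations of 0.067, -0.015 and 0.048 between same-numbered MLN4924 libraries. Between libraries of other numbers they were -0.076 to 0.027. With 3 libraries per group this check cannot decide whether a batch was shared. Named genes were the 12 largest changes in each direction with a mean of at least 5 FPKM and groups apart, up to 3 per list, the 8 largest differences between treatments in each direction and a fixed set of pathway genes. Genes named beyond that were chosen after their values were seen. Some genes that the rule names are not reported here. The members and lists were chosen with earlier results of these data known. Alternatives varied the pseudocount, the filter, the scaling, the trend, the replicate block, the libraries in the fit and each left-out library. Promoters came from RefSeq on GRCm38.p6 and were matched by symbol. Figures were drawn with matplotlib 3.10.9.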

Additional observations from a re-analysis of the deposited data

Results flagged for a closer look

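The hypoxia effect differed between MLN4924 and DMSO by the test of the difference (limma, 12 libraries) in 118 genes with a positive and 114 with a negative difference, the effect under MLN4924 minus that with DMSO, on the log2(FPKM + 1) scale. Of the named genes, positive differences were found for H19 (1.1), Angptl6 (0.973), Ifit3 (1.41), Ifit3b (1.46), Ifit1 (1.19), Ppp1r3c (0.76), Cxcl10 (1.06), Dgat2 (0.9), Bhlhe40 (0.432), Ifi44 (1.84), Rgcc (1.58), Xdh (1.52), Iigp1 (1.42), Gm12976 (3.34), Star (2.13), Nqo1 (0.588) and Cdt1 (0.37). Negative differences were found for Adm (-1.34), Egr1 (-0.759), Cdc20 (-0.968), Plk1 (-0.67), Ccnb1 (-0.793), Cdkn1a (-1.15), AY036118 (-1.96), Nr1d1 (-1.82), Lce1g (-1.75), Trib3 (-1.42), Gas2l3 (-1.26), Slc7a11 (-1.22), Dbp (-1.19) and Atf4 (-0.622). Of 15 alternatives, the call of Cdt1 was lost in 12 and those of Nqo1, Angptl6, Dbp, AY036118 and Gm12976 in 11. Those of Atf4, Egr1, Bhlhe40, Star and Xdh were lost in 9. Iigp1 lost its call in 5, Lce1g in 4 and Ifit3b in 1. Nqo1 was not called under MLN4924 alone.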

How the results depend on the processing

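More genes fell than rose under MLN4924 at each setting run except median-of-ratios scaling, which gave 2445 rising and 2429 falling genes. Leaving out 1 library gave 1669 to 1757 rising and 2296 to 2625 falling genes, the fit on all 12 libraries 1439 and 2034, and a pseudocount of 0.1 FPKM 2054 and 2848. The rising share of calls was 41.9%, 50.2% with median-of-ratios scaling and 36.8% with equal totals without mitochondrially encoded genes. With the replicate block the counts were 1823 and 2569, but whether same-numbered libraries share a batch is not known. The same block gave 415 rising and 414 falling genes with DMSO, and 56 positive and 76 negative differences between the treatments. Leaving out 1 library gave 310 to 1470 rising and 296 to 2557 falling genes with DMSO, and 42 to 408 positive and 48 to 270 negative differences. Nae1, which was not called, changed sign to 0.006152 with median-of-ratios scaling and ranged from -0.1134 to 0.001466 over the left-out libraries. The cause was not tested. In the fit on all 12 libraries the falling counts were also lower for fatty acid handling (4), YAP and SRF targets (6) and iron handling (3). Of 139 called named genes, 117 kept their call under every setting that tested them, 17 lost it without some library and 19 under another setting. The list counts of differences between treatments were added after seeing the data. Unknown depth limits what can be said of genes near the filter.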
